A study of Mus musculus with 4 samples.

Results

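The insulin-like growth factor (IGF) system was examined in RNA sequencing data from primary cell cultures of the mouse inner ear. The 10 genes were chosen by symbol: the ligands Igf1 and Igf2, the receptors Igf1r and Igf2r, and the binding proteins Igfbp2, Igfbp3, Igfbp4, Igfbp5, Igfbp6 and Igfbp7. All 10 were found among the 24346 gene symbols of the deposited tables. The study compared cultures of vestibular cells (2 libraries) with cultures of cochlear cells (2 libraries), that is, cells of the balance organs with cells of the hearing organ. The labels give no strain, age, genotype, agent or time in culture for either group, and nothing in them says whether the libraries of a group came from different animals or cultures. The p-values therefore measure only the spread between these libraries, which may be technical.

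IGF1 and IGF2 are secreted peptides that promote growth and survival by activating the tyrosine kinase receptor encoded by Igf1r. The receptor encoded by Igf2r lacks a kinase, binds IGF2 and carries it to lysosomes for degradation. Binding proteins hold the ligands outside the cell, and proteases that cleave them set the ligands free. In mice, loss of Igf1 impairs development of the cochlea and hearing.

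Values are FPKM, that is, fragment counts scaled to the length of the transcript and the size of the library. Hence levels may be set side by side between genes. The number of fragments per library is not given in the sources used here, and no counting interval can be attached to a value. FPKM sums ran from 479380 to 519122 over the libraries. Where values are joined by "against", those of vestibular libraries 1 and 2 stand first and those of cochlear libraries 1 and 2 follow. Genes were kept where the mean was at least 1 FPKM (13200 genes), a filter that all 10 IGF genes passed. Of 11 hair cell markers, 6 had a mean under 1 FPKM. Their highest values in any library were 0.0251 FPKM for Slc26a5 (prestin), 0.1001 for Atoh1, 0.512 for Tmc1, 0.925 for Gfi1, 1.005 for Pou4f3 and 1.63 for Otof. Tmc1, Gfi1, Pou4f3 and Otof were higher in both vestibular libraries than in both cochlear ones, while Slc26a5 and Atoh1 overlapped. Among all genes kept, 26.9% were apart with the vestibular side higher. The 5 kept were Cib2 (15.3 to 25.6 FPKM), Myo6 (9.66 to 24.5), Myo7a (5.81 to 13.4), Espn (4.53 to 17.2) and Ush1c (2.84 to 5.29), while the otic mesenchyme transcription factor gene Pou3f4 stood at 46.4 to 124 FPKM. Of 17 macrophage and leukocyte markers, every one was lower in cochlear library 2 than in the other 3 libraries: their summed level was 31.6 FPKM there, against 7459 in cochlear library 1 and 9513 and 7204 in vestibular libraries 1 and 2.

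The IGF genes with the largest fold differences among those that separated the groups were binding proteins. Igfbp2, Igfbp4 and Igfbp6 were higher in both vestibular libraries than in both cochlear libraries, while Igfbp3, Igf1r and Igf2r were lower in both. Igf1, Igf2, Igfbp5 and Igfbp7 overlapped between the groups. Separation without overlap in 6 of 10 genes compares with 55.3% of all genes kept, so the share of IGF genes was near that of the whole table (26.9% of all genes separated with the vestibular side higher and 28.4% with it lower). In limma, with Benjamini-Hochberg adjustment over all 13200 genes, 0 of 10 IGF genes passed an adjusted p of 0.05 (lowest adjusted p 0.141, for Igfbp2), where 0.0303% of all genes (4 genes) did. At an unadjusted p under 0.05 there were 5 of 10, against 18.2% of all genes. Of these 5, Igfbp2, Igfbp4 and Igfbp6 were higher (7.61% of all genes) and Igf2r and Igfbp3 lower (10.6%) in vestibular cultures. That count was 5 without vestibular library 1, where 20.6% of all genes had such a p, 3 without vestibular library 2 (13.3%), 5 without cochlear library 1 (14.5%) and 2 without cochlear library 2 (7.71%). With 2 libraries against 2, an exact permutation test of a single gene cannot give a 2-sided p below 0.33.

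**Figure D1:**
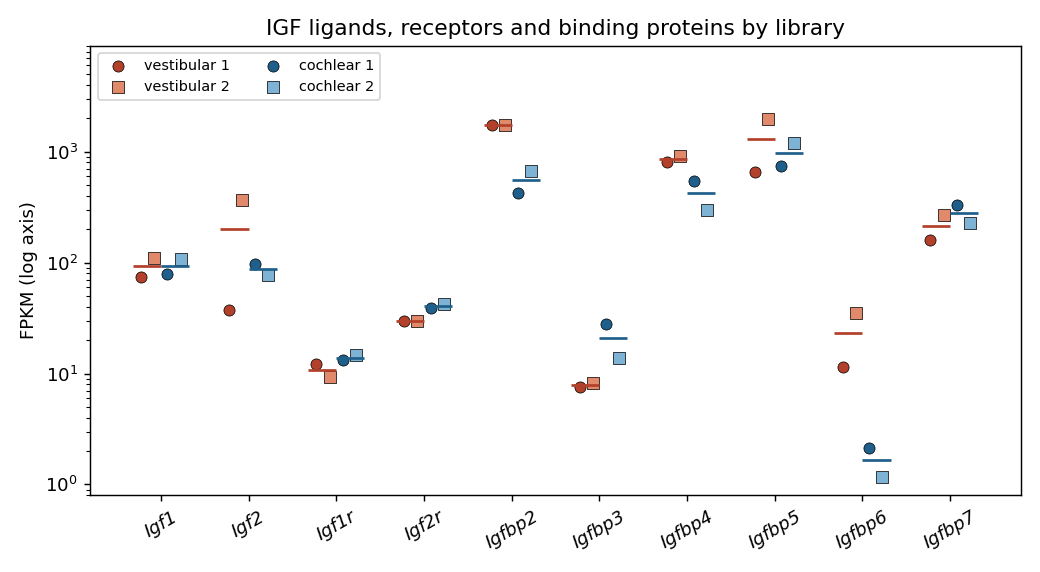
FPKM of each IGF gene in the 4 libraries on a log axis; points are libraries and horizontal lines are group means (n = 2 each). The vestibular values of Igfbp2 (1751 and 1742) lie above its cochlear values (425 and 677), while the widest spread within a group was that of Igf2 in the vestibular libraries (37.1 and 369).

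Among the ligands, Igf1 had nearly equal group means. Its level was 74.9 and 111 against 78.2 and 108 FPKM. Vestibular cultures averaged 92.8 ± 25.3 FPKM (SD, n = 2) and cochlear cultures 93.0 ± 20.9 (SD, n = 2), and the difference on the log2(FPKM + 1) scale, vestibular minus cochlear, was -0.012 with an SE of 0.28 (limma adjusted p 0.987). Library 2 of each group was the higher one. Macrophages are a known source of IGF1. In cochlear library 2, Igf1 stood at 108 FPKM beside 0.148 FPKM of the macrophage marker Csf1r and 0.0363 of Ptprc. The part of macrophages in the Igf1 values of the libraries was not tested. The sign of the Igf1 difference turned with the library left out, to 0.27 without vestibular library 1 and 0.22 without cochlear library 2. Igf1 lies on the plus strand of chromosome 10 at 87858265 to 87937042 (GRCm38, also called mm10, with GENCODE M21 genes, which also gives the other gene positions) and overlaps the antisense gene Igf1os.

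Igf2, an imprinted fetal growth factor gene expressed from the paternal allele, was uneven between the vestibular libraries. Its level was 37.1 and 369 against 97.3 and 77.6 FPKM, so both cochlear values lay between vestibular values that were 9.95-fold apart. The log2 difference was 0.43 with an SE of 1.21 (limma adjusted p 0.866). Without vestibular library 1 it was 2.07, and without vestibular library 2 it was -1.21, so each vestibular library alone gave the opposite direction (adjusted p 0.112 and 0.279, within a range of 0.112 to 0.971 over all alternatives). Igf2 was the less abundant ligand in vestibular library 1 (0.495 times Igf1) and cochlear library 2 (0.720 times), and the more abundant one in vestibular library 2 (3.33 times) and cochlear library 1 (1.24 times).

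The summed marker genes of cartilage and of otic fibrocytes and mesenchyme were also highest in vestibular library 2. The 12 cartilage markers measured summed to 815 and 4938 against 255 and 271 FPKM, with Col2a1 at 543, 2365, 83.9 and 38.5. Matn3 was listed at 0 in 3 libraries and Acan was at most 7.52 FPKM. Of the 8 cartilage markers kept, 5 were higher in both vestibular libraries than in both cochlear libraries (26.9% of all genes). The others, Col9a2, Col11a2 and Sox9, overlapped. Sox9 stood at 17.4 and 29.4 against 28.7 and 29.5 FPKM, with a log2 difference of -0.35. Comp, Matn1, Matn3 and Hapln1 had means too low to be kept. The 7 fibrocyte and mesenchyme markers summed to 769 and 3409 against 516 and 425 FPKM, none of them at 0. The 7 melanocyte markers summed to 47.6 and 243 against 116 and 105 FPKM. In vestibular library 2 that sum held 166 FPKM of Dct, which was at most 0.56 elsewhere, whereas in the cochlear libraries it was mostly Sox10, at 108 and 100.4, a gene that glial cells also express; Tyrp1 was listed at 0 in the other 3 libraries. In vestibular library 1, where Igf2 was lowest, the cartilage and fibrocyte sums lay above those of the cochlear libraries. The part of these cells in the Igf2 values was not tested. In bulk cultures, fewer cells of a type and less RNA per cell cannot be told apart.

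**Figure D2:**
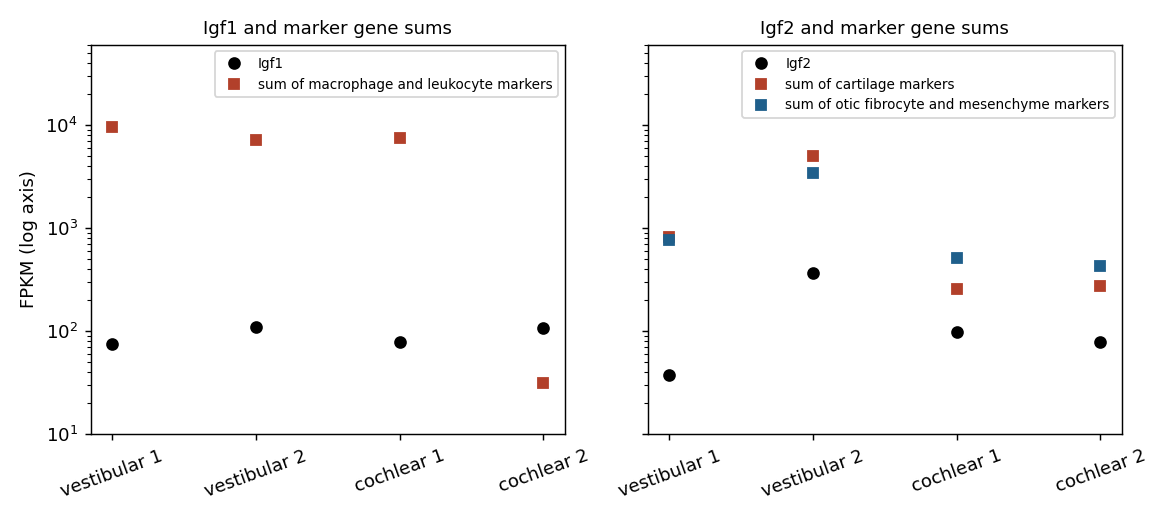
Igf1 beside summed macrophage and leukocyte markers (left) and Igf2 beside summed cartilage and otic fibrocyte markers (right), in FPKM on a log axis, 1 point per library. Igf1 lies between 74.9 and 111 FPKM and the macrophage sum between 31.6 (cochlear library 2) and 9513 FPKM, and the part of macrophages in Igf1 was not tested; Igf2 and both marker sums on the right were highest in vestibular library 2.

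Igf2 lies on the minus strand of chromosome 7 at 142650766 to 142666816, with 72622 bases between it and H19, the maternally expressed noncoding gene that shares its imprinting control. H19 stood at 3.57 and 6.20 against 11.6 and 6.46 FPKM, levels that were lowest, like those of Igf2, in vestibular library 1 but highest in cochlear library 1. The antisense gene Igf2os, which overlaps Igf2, was at most 0.680 FPKM, and Mir483, a microRNA gene within Igf2, was listed at 0 in all 4 libraries. A listing at 0 may be a failed estimate, since the ribosomal protein gene Rpl26 was also listed at 0 in every library.

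Both receptor genes were lower in the vestibular cultures by a small margin. Igf1r, which encodes the signalling receptor, stood at 12.3 and 9.29 against 13.1 and 14.7 FPKM. The groups did not overlap, but the nearest libraries differed by only 1.07-fold (log2 difference -0.35, SE 0.18, limma adjusted p 0.385). Igf2r, which encodes the clearance receptor, had the smallest SE of the 10 genes, with levels of 29.9 and 29.6 against 38.9 and 42.4 FPKM. Its group means differed by 1.37-fold, with a log2 difference of -0.44 and an SE of 0.10 (limma adjusted p 0.198). The ratio of Igf2r to Igf1r was 2.44 and 3.19 against 2.96 and 2.89, and so overlapped between groups. Insr, the insulin receptor gene, which is closely related to Igf1r, stood at 7.77 and 9.20 against 10.6 and 11.8 FPKM (log2 difference -0.36, SE 0.15).

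Igf1r lies on the plus strand of chromosome 7 at 67952827 to 68233668, and Igf2r on the minus strand of chromosome 17 at 12682406 to 12769664. The noncoding gene Airn, which overlaps Igf2r on the other strand and takes part in its imprinting in mice, stood at 6.74 and 5.57 against 15.4 and 16.8 FPKM. The library kit keeps strand, but whether strand was used in counting is not given in the sources used here, so fragments of Igf2r and Airn may be shared. Epithelial markers were lower in the vestibular cultures as well, in 17 of 17 kept, with the groups apart in 15 (28.4% of all genes in this direction). The 18 markers summed to 1287 and 124 against 2344 and 2931 FPKM, with none at 0. The part of epithelial cells in the receptor values was not tested.

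Igfbp2, Igfbp4, Igfbp5 and Igfbp7 had the highest mean levels of the 10 genes in both groups. Igfbp2, a binding protein gene abundant in embryonic and neural tissues, separated the groups with little spread on the vestibular side. Its level was 1751 and 1742 against 425 and 677 FPKM. The means of 1746 ± 6.42 and 551 ± 178 FPKM (SD, n = 2 each) differed by 3.17-fold, and the nearest libraries by 2.57-fold. On the log2 scale the difference was 1.70 with an SE of 0.28 (limma adjusted p 0.141). The unadjusted p stayed under 0.05 in all 10 alternatives run, and the difference ranged from 1.37 to 2.04. Igfbp2 ranked 22 and 20 among all symbols by level in the vestibular libraries, and 172 and 89 in the cochlear libraries.

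Igfbp4, whose product is cleaved by the protease PAPPA, also stood higher in the vestibular libraries, at 815 and 909 FPKM against 544 and 301. The means were 862 ± 66.2 and 422 ± 172 FPKM (SD, n = 2 each), a 2.04-fold difference, with nearest libraries 1.498-fold apart (log2 difference 1.09, SE 0.34, limma adjusted p 0.251). The difference ranged from 0.66 without cochlear library 2 to 1.51 without cochlear library 1. The 2 cochlear libraries differed from each other by 1.81-fold, more than the gap between the groups.

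Igfbp6, whose product prefers IGF2 over IGF1, had the largest ratio between group means of the 10 genes, 14.1-fold, at a low level. It stood at 11.4 and 35.3 against 2.13 and 1.17 FPKM, so the nearest libraries were 5.36-fold apart while the vestibular libraries differed by 3.09-fold. The log2 difference was 3.03 with an SE of 0.61 (limma adjusted p 0.177). This scale adds 1 to every value and understates the change of low genes, and with 0.1 added instead the difference was 3.58 (adjusted p 0.177, within 0.106 to 0.645 over all alternatives). Without vestibular library 2 it was 2.25 and without vestibular library 1 it was 3.80.

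Igfbp3, the gene for the main carrier of IGFs in serum, ran the other way. Its level was 7.499 and 8.18 against 28.1 and 13.9 FPKM. Means of 7.84 ± 0.479 and 21.0 ± 10.05 FPKM (SD, n = 2 each) differed by 2.68-fold, with the nearest libraries 1.70-fold apart (log2 difference -1.24, SE 0.37, limma adjusted p 0.238). Cochlear library 1 was the highest of the 4, and the difference was -0.76 without it and -1.72 without cochlear library 2. As Igfbp2 and Igfbp3 lay in opposite directions, the level of Igfbp2 was 234 and 213 times that of Igfbp3 in the vestibular libraries and 15.1 and 48.6 times in the cochlear libraries.

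Igfbp5 and Igfbp7 did not separate the groups. Igfbp5, whose product binds to extracellular matrix and bone mineral, stood at 657 and 1972 against 749 and 1206 FPKM. Library 2 was higher in each group, and the log2 difference of 0.26 had an SE of 0.65 (limma adjusted p 0.848). Its sign turned to -0.53 without vestibular library 2 and to -0.083 without cochlear library 1. Igfbp7, whose product binds IGFs weakly and is a component of basement membrane and secreted matrix, stood at 159 and 272 FPKM against 329 and 228 (log2 difference -0.40, SE 0.36, limma adjusted p 0.573).

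Endothelial cells are a known source of Igfbp3 and Igfbp7. The 9 endothelial markers, of which 5 were kept, summed to 28.7 and 54.4 against 123 and 302 FPKM, and most of the cochlear sums was Emcn, at 111.9 and 286.9 FPKM. Cldn5 was listed at 0 in all 4 libraries, and Pecam1 was at most 0.155 FPKM. The other markers kept were Cdh5 (0.915 and 10.7 against 0.293 and 0.0955 FPKM), Tek (1.57 to 6.002 over the libraries), Kdr (0.808 to 4.85) and Egfl7 (4.81 to 6.68). The part of endothelial cells in the Igfbp3 and Igfbp7 values was not tested.

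**Figure D3:**
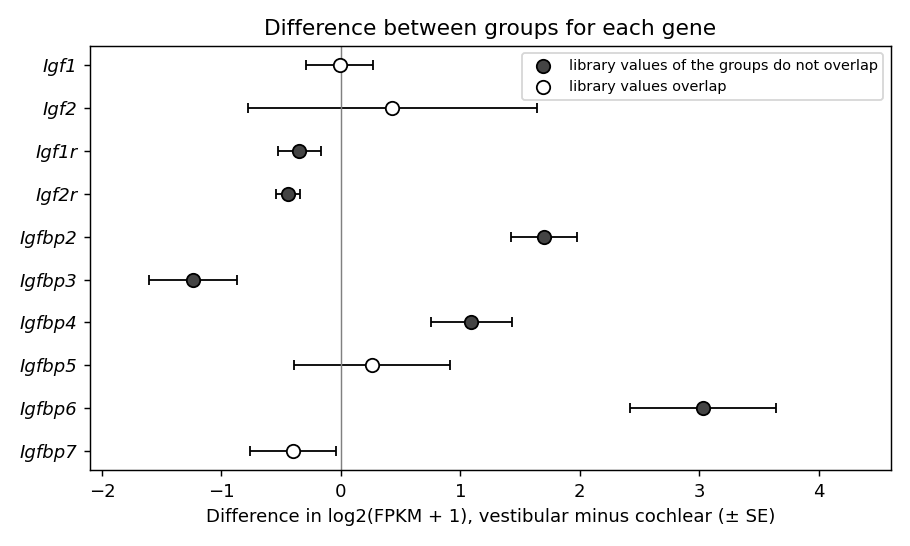
Difference in log2(FPKM + 1), vestibular minus cochlear, with its limma SE for each IGF gene; filled points mark genes whose library values do not overlap between groups. Igfbp6, Igfbp2 and Igfbp4 lay at 3.03, 1.70 and 1.09, Igfbp3 at -1.24, and Igf2 had the widest SE (1.21).

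Fibroblast and collagen matrix markers lay higher in the vestibular cultures beside Igfbp2, Igfbp4 and Igfbp6. All 22 markers had a higher mean of log2 values there, and 17 were apart between the groups, where 26.9% of all genes were apart with the vestibular side higher. Their summed level was 8597 and 14440 against 4991 and 4048 FPKM, with none at 0. Within the vestibular group the Igfbp2 values were 1.005-fold apart, those of Igfbp4 1.115-fold and those of Igfbp6 3.09-fold. There the marker sums differed, while the median log2(FPKM + 1) of the markers was 6.91 in library 1 and 6.97 in library 2. Single markers differed there in both directions, with Col1a1 at 371 and 134 FPKM and Dcn at 494 and 1542. The part of fibroblasts in the binding protein values was not tested. Macrophage markers summed lowest in cochlear library 2, and without that library the log2 difference was 2.04 for Igfbp2, 0.66 for Igfbp4 and 2.76 for Igfbp6.

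The sequences just upstream of the genes that separated most are given to show what lies at their starts. They are the 250 bases before the RefSeq transcription start (GRCm38.p6) of the 3 binding protein genes with higher vestibular values, and of Igfbp3, which lay the other way. Each is written 5′ to 3′ on the gene's strand, and capitals mark matches on either strand to the GC box GGGCGG, the TATA box TATAAA or the E-box CACGTG. Igfbp2 has a further RefSeq start downstream, which is not shown.
Igfbp2 (chr1:72824230-72824479, plus strand): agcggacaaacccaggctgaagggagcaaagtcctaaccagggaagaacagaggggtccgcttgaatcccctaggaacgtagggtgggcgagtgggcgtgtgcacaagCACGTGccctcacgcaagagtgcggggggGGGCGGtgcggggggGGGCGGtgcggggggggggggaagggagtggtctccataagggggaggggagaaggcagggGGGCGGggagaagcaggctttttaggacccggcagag
Igfbp4 (chr11:99040994-99041243, plus strand): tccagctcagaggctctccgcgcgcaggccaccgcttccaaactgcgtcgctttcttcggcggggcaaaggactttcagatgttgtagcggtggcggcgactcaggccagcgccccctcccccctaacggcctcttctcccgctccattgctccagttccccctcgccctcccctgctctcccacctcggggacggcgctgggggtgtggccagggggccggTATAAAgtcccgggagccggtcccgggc
Igfbp6 (chr15:102143936-102144185, plus strand): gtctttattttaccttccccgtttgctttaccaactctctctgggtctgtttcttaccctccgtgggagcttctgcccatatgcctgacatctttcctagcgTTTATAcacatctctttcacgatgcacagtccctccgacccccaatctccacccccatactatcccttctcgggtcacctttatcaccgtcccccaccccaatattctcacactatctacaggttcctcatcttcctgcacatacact
Igfbp3 (chr11:7213924-7214173, minus strand): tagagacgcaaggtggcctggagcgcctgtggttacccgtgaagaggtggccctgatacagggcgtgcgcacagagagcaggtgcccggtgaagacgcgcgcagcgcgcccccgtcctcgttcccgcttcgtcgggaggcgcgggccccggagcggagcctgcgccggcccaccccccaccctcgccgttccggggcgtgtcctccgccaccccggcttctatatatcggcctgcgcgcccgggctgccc

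No motif was found in all 4 windows. Igfbp2 held 3 GC boxes and 1 E-box. Igfbp4 held 1 TATA box, 28 bases before the start, and Igfbp6 held 1 on the other strand, 148 bases before the start. The RefSeq window of Igfbp6 ends at 102144185, upstream of the start at 102144362 that GENCODE M21 gives for this gene. Igfbp3 held no exact match to these motifs, and variants of them were not searched. No matches overlapped. Over all 32851 RefSeq windows of the same length, 32.7% held a GC box, 12.4% a TATA box and 6.02% this E-box. The CpG count was 14 for Igfbp2, 22 for Igfbp4, 7 for Igfbp6 and 32 for Igfbp3, against a median of 6 over all windows, and the GC content was 67.2%, 69.2%, 49.6% and 73.2% against a median of 52.4%. The 3 genes with higher vestibular values thus ranged from 7 to 22 CpG, and Igfbp3 had the most of the 4.

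In the genome, Igfbp2 and Igfbp5 are neighbours on chromosome 1 that face each other, Igfbp2 at 72824503 to 72852474 on the plus strand and Igfbp5 at 72857932 to 72874884 on the minus strand, with 5457 bases between them. Only Igfbp2 of this pair was apart between the groups, although the difference between the genes was not tested. Igfbp3 (chromosome 11, 7206086 to 7213923, minus strand) has Igfbp1, a gene best known from liver, 3539 bases away. Igfbp1 was listed at 0 in all 4 libraries. Igfbp4 is also on chromosome 11 (99041244 to 99054392, plus strand), Igfbp6 on chromosome 15 (102144362 to 102149511, plus strand), and Igfbp7 on chromosome 5 (77349240 to 77408041, minus strand). The far end of Igfbp7 overlaps Polr2b of the other strand.

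Igfbp2, Igfbp4 and Igfbp5 made up most of the binding protein transcripts in each library. Igfbp2 led in vestibular library 1 and Igfbp5 in the other 3 libraries. Over the 6 binding protein genes the FPKM summed to 3401 and 4938 against 2078 and 2427. Igfbp2 made up 51.5% and 35.3% of that sum in the vestibular libraries and 20.5% and 27.9% in the cochlear libraries, so the groups did not overlap. Igfbp7 made up 4.67% and 5.50% against 15.8% and 9.40%, and also did not overlap. Igfbp5 made up 19.3%, 39.9%, 36.1% and 49.7% in vestibular 1, vestibular 2, cochlear 1 and cochlear 2, and Igfbp4 24.0%, 18.4%, 26.2% and 12.4%. The smallest shares were those of Igfbp3, at most 1.35%, and Igfbp6, at most 0.715%. These shares describe FPKM and add up by construction, so a high share of one gene lowers those of the others.

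**Figure D4:**
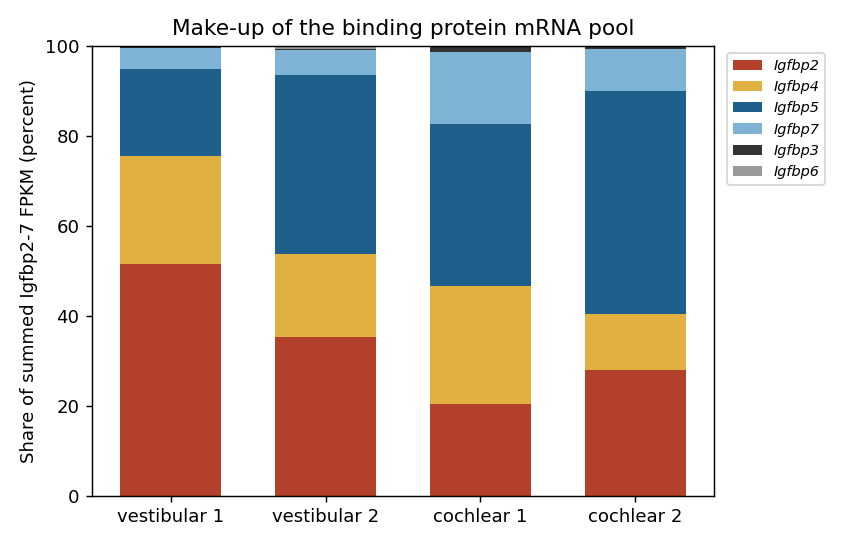
Share of each binding protein gene in the summed FPKM of Igfbp2 to Igfbp7, in percent, 1 bar per library. The share of Igfbp2 was 51.5% and 35.3% for the vestibular bars and 20.5% and 27.9% for the cochlear bars, while Igfbp5 had the largest share in vestibular library 2 (39.9%) and both cochlear libraries (36.1% and 49.7%).

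The summed binding proteins exceeded the summed ligands in each library. The ratio of their FPKM was 30.4 in vestibular library 1, 10.3 in vestibular library 2, 11.8 in cochlear library 1 and 13.1 in cochlear library 2, so vestibular library 1 stood apart and the groups overlapped. Ligand sums were 112, 479, 176 and 185 FPKM in the same order, with the lowest and the highest both in the vestibular group.

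By mean level per transcript length, the order in the vestibular cultures was Igfbp2, Igfbp5, Igfbp4, Igfbp7, Igf2, Igf1, Igf2r, Igfbp6, Igf1r and Igfbp3. Neighbours in this order overlapped in their library values except at Igfbp4 over Igfbp7, at Igf1 over Igf2r and at Igf1r over Igfbp3. In the cochlear cultures it was Igfbp5, Igfbp2, Igfbp4, Igfbp7, Igf1, Igf2, Igf2r, Igfbp3, Igf1r and Igfbp6. There, Igfbp5 lay above Igfbp2, Igfbp7 above Igf1, Igf2 above Igf2r, Igf2r above Igfbp3 and Igf1r above Igfbp6 without overlap, and the other neighbours overlapped. The lowest place was held by Igfbp3 in vestibular cultures (7.84 ± 0.479 FPKM) and by Igfbp6 in cochlear cultures (1.65 ± 0.683; SD, n = 2 each).

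By median, the 10 genes varied more than all genes kept, within groups as well as between them, though not every one of the 10 did. Their median absolute log2 difference was 0.434 between groups, 0.462 within the vestibular group and 0.529 within the cochlear group, against 0.250, 0.218 and 0.171 over all genes kept. Their median signed difference was 0.12, beside 0.01 for all genes. They were also abundant, with a median of mean levels of 119 FPKM beside 12.4 for all genes kept.

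Other genes of the IGF pathway were read from 5 lists that together held 69 genes, 57 of them kept. None of the 57 passed limma over all genes (lowest adjusted p 0.0914, for Plat). At an unadjusted p under 0.05 there were 14 (24.6%, against 18.2% of all genes), 8 higher and 6 lower in vestibular cultures, and 38 (66.7%, against 55.3%) were apart between groups, 15 higher and 23 lower. The median log2 difference was -0.01, beside 0.01 over all genes. The count of 14 was 20 without vestibular library 1 (20.6% of all genes), 13 without vestibular library 2 (13.3%), 8 without cochlear library 1 (14.5%) and 10 without cochlear library 2 (7.71%).

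Genes for proteases that cleave binding proteins, and for their inhibitors, held 6 of those 14, from 9 genes kept (18.2% of all genes had such a p). Pappa2, whose product cleaves IGFBP3 and IGFBP5, stood at 18.3 and 37.6 against 1.06 and 4.35 FPKM (log2 difference 3.04, SE 0.64). Pappa, whose product cleaves IGFBP4, stood at 11.7 and 27.8 against 6.84 and 3.68 FPKM (log2 difference 1.66, SE 0.53). The groups were apart for each, with vestibular library 2 highest. Stc2, which encodes a secreted inhibitor of PAPPA, lay the other way at 4.36 and 2.14 against 11.3 and 18.9 FPKM (log2 difference -1.93, SE 0.40). Its relative Stc1 had 5.78 and 17.7 against 25.8 and 18.7 FPKM. Vestibular library 1 was far below the rest for Stc1, and the other vestibular value lay close to the lower cochlear one.

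The serine protease gene Htra1 stood at 216 and 333 against 127 and 163 FPKM (log2 difference 0.89, SE 0.28), and the metalloprotease gene Adam12 at 6.65 and 9.82 against 4.55 and 4.30 (0.75, SE 0.22). Plat, which encodes tissue plasminogen activator, had 44.4 and 42.5 against 95.4 and 108 FPKM (log2 difference -1.20, SE 0.11). The groups were apart for all 3 genes. Limma adjusted p in this list was 0.0914 for Plat, 0.180 for Stc2, 0.181 for Pappa2, 0.237 for Adam12, 0.251 for Htra1 and 0.252 for Pappa. Ctsd, the lysosomal cathepsin D gene and the most abundant of the list, overlapped between groups at 2772 and 2264 against 2654 and 1349 FPKM, with cochlear library 2 lowest.

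Of the other ligands, carriers and receptors, 3 of 10 were kept. Ghr, the growth hormone receptor gene, stood at 79.6 and 126 against 26.1 and 20.9 FPKM (log2 difference 2.05, SE 0.28, limma adjusted p 0.121). Both vestibular values lay far above both cochlear ones. The insulin genes Ins1 and Ins2 were listed at 0 in all 4 libraries. Igfals, which encodes the acid-labile subunit of the serum complex, was at most 0.715 FPKM.

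Of 34 receptor signalling genes kept, 5 had an unadjusted p under 0.05 (2 higher, 3 lower), beside 18.2% of all genes. The groups were apart with higher vestibular values in 7 (26.9% of all genes) and with lower ones in 16 (28.4%), and the list's median log2 difference was -0.03. The adaptor genes Grb10 and Grb14, whose products bind and restrain insulin and IGF receptors, lay in opposite directions. Grb10 stood at 39.3 and 33.4 against 17.9 and 23.5 FPKM (log2 difference 0.79, SE 0.19). Grb14 stood at 20.3 and 28.2 against 100.3 and 135 FPKM (log2 difference -2.23, SE 0.24, limma adjusted p 0.106). No library crossed between the groups for either gene.

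Gab1, a docking protein gene, had 16.8 and 20.8 against 50.005 and 48.5 FPKM (log2 difference -1.35, SE 0.14, limma adjusted p 0.0983). The kinase genes Akt1 and Akt2, the most abundant genes of the list, had 96.5 and 98.0 against 84.1 and 77.6, and 75.5 and 114 against 86.8 and 87.0 FPKM. Shc1, an adaptor gene, stood at 77.7 and 98.9 against 61.6 and 59.1 FPKM (0.53, SE 0.16). Akt2 overlapped between the groups, while Gab1, Akt1 and Shc1 did not.

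Among genes for proteins that bind Igf2 mRNA, Igf2bp2 stood at 6.18 and 3.44 against 13.6 and 15.1 FPKM (log2 difference -1.44, SE 0.28, limma adjusted p 0.171). Igf2bp1 and Igf2bp3 were at most 1.83 and 4.08 FPKM. Of the IGFBP-related and CCN genes, Kazald1 was apart with 62.2 and 64.5 against 21.4 and 15.01 FPKM (log2 difference 1.76, SE 0.20, limma adjusted p 0.107). The 3 most abundant, Ctgf, Cyr61 and Nov, overlapped: Ctgf ran from 401 to 638 FPKM over the 4 libraries, Cyr61 from 138 to 453 and Nov from 103 to 212.

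**Figure D5:**
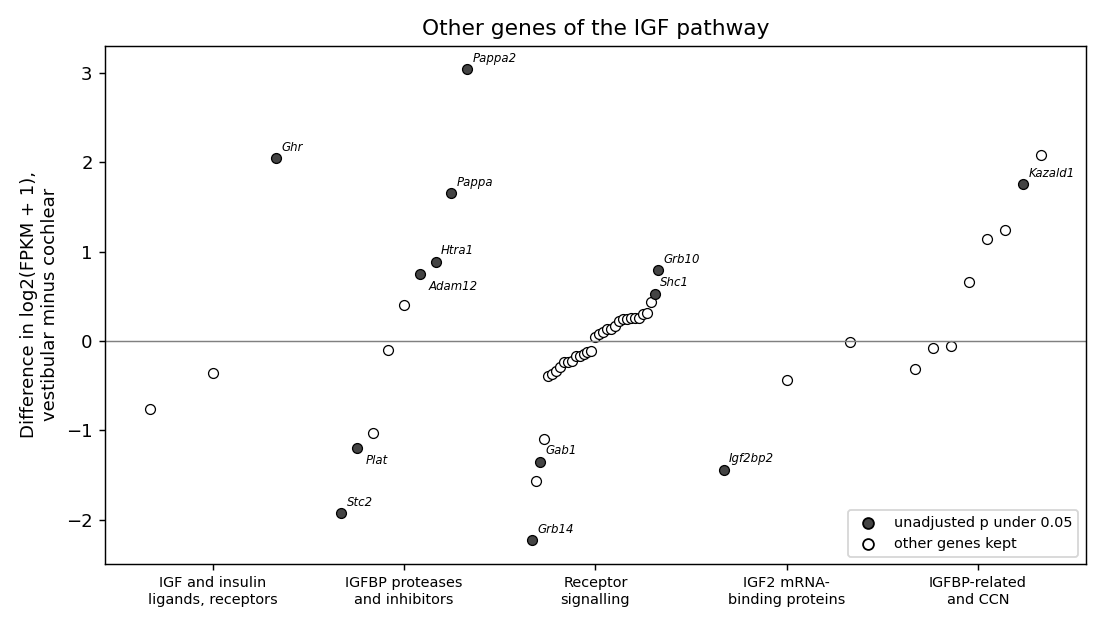
Difference in log2(FPKM + 1), vestibular minus cochlear, of other pathway genes kept, grouped by list; filled points with names have an unadjusted limma p under 0.05. The protease list holds Pappa2 at 3.04 and Stc2 at -1.93, and most receptor signalling genes lie near 0 (median -0.03).

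For each IGF gene, the 3 genes of most similar pattern over the 4 libraries were found by the Euclidean distance between centred log2(FPKM + 1) values, among 9582 genes with a mean of at least 5 FPKM. The candidates are many and the libraries few, so the distances are a description only. Igf2 was closest to Frzb (distance 0.250), a secreted WNT antagonist gene at 4.98 and 52.2 against 16.98 and 11.3 FPKM. Next for Igf2 were the cochlin gene Coch (0.604) and the connexin gene Gjb2 (0.623), both known from the cochlear lateral wall; Coch is also among the fibrocyte markers summed above. Igfbp2 was closest to Lrrn4cl (0.146), Sfrp4 (0.173) and Tppp3 (0.271), and Sfrp4, another secreted WNT antagonist gene, stood at 767 and 722 against 195 and 264 FPKM.

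Igfbp6 was closest to Nfasc (0.393), Adamtsl3 (0.460) and the type I collagen gene Col1a2 (0.626), which stood at 1140 and 3452 against 492 and 218 FPKM and is among the fibroblast markers summed above. For Igfbp3 they were Rgs4 (0.168), Limd2 (0.320) and Zhx3 (0.344), and for Igfbp4 Ssh2 (0.0712), Iffo1 (0.102) and Pald1 (0.146). Igfbp5 lay nearest to St3gal6 (0.248), Ptprz1 (0.258) and Hlf (0.301), and Igfbp7 to the activin antagonist gene Fst (0.101), Atoh8 (0.108) and Idi1 (0.164). Igf1 lay nearest to Fam13c (0.0768), Lrrk1 (0.0824) and Zfp369 (0.0843). Igf1r lay nearest to Cdk5rap2 (0.0263), Cycs (0.0415) and Cldnd1 (0.0442), and Igf2r to Dnajc21 (0.0199), Atp5d (0.0333) and Cul3 (0.0426). Among the 10 genes themselves the closest pair was Igf1r with Igf2r (0.267), and the most distant was Igfbp3 with Igfbp6 (4.395).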

How the data were processed

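Libraries of 2 vestibular and 2 cochlear primary cultures were made with a stranded mRNA kit from TRIzol extracts, per the labels' protocols. The deposited values are FPKM per gene symbol and library, per the file headers. Cuffdiff 2.2.1, TopHat2 2.1.1, SAMtools 0.1.18, Bowtie2 2.2.8 and the mm10 build are named in the submitters' processing notes. The sources used here do not give the annotation, the strand setting or the scaling between libraries. A value thus depends on an unknown transcript model, and its depth in fragments is unknown.

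Groups follow the cell type label. Genes with a mean of at least 1 FPKM over the 4 libraries (13200) were compared as log2(FPKM + 1) with limma 3.58.1 in R 4.3.3 (lmFit, eBayes with a mean-variance trend, 2-sided, prior degrees of freedom 1.71), Benjamini-Hochberg adjustment over all genes kept and a threshold of 0.05. No count model was used, as the values are not counts. The fit was tested on simulated data. Alternatives were a pseudocount of 0.1, no filter, a replicate block, no trend, rescaling to equal sums, quantile normalization and leaving out each library. A lone library was then assumed to vary like the other group. Promoter windows come from RefSeq (GRCm38.p6), where all 10 genes matched by symbol.

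The IGF genes, the pathway and marker lists and the tests were chosen with earlier results of these data known. The genes named were the 10 IGF genes; from each pathway list, up to 6 genes with an unadjusted p under 0.05, groups apart and a mean of at least 5 FPKM in the higher group, and the 3 most abundant; and the 3 genes of most similar pattern per IGF gene. Marker genes and the overlapping genes Airn, Igf2os, Mir483 and Polr2b, as well as other pathway genes named outside these rules (Stc1, Igfals, Igfbp1, Ins1, Ins2), were chosen after their values were seen. A pathway gene that met this rule is counted but not reported here.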

Additional observations from a re-analysis of the deposited data

How the results depend on the processing

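Under 10 alternatives for each of the 10 IGF genes, 95 of 100 log2 differences kept their direction, and none passed an adjusted p of 0.05 in limma (lowest 0.106). Part of that count was set in advance. Dropping the filter or the trend, or adding the block, leaves a log2 difference as it is in this design. A gene whose groups were apart cannot reverse when a library is left out. The 5 differences that reversed all came from leaving out a library: Igf1 at 0.27 without vestibular library 1 and 0.22 without cochlear library 2, Igf2 at -1.21 without vestibular library 2, and Igfbp5 at -0.53 without vestibular library 2 and -0.083 without cochlear library 1. The cause was not tested. Over the libraries left out, the difference ran from -0.29 to 0.27 for Igf1, -1.21 to 2.07 for Igf2 and -0.53 to 1.05 for Igfbp5. Leaving out each library in turn gave 2 to 5 IGF genes at an unadjusted p under 0.05, 6 to 10 without overlap (73.3% to 80.5% of all genes) and 8 to 20 other pathway genes at an unadjusted p under 0.05. A single library on one side overlaps less often by construction. The count of all genes past an adjusted p of 0.05, 4 as reported, was 2 without a filter on low values, where 18257 genes were tested, and 0 on leaving out any library (1018 to 2724 genes, 7.71% to 20.6%, at an unadjusted p under 0.05). With the replicate number as a block it was 0 of 13200 (1887 at an unadjusted p under 0.05), with 4 IGF genes and 13 other pathway genes at an unadjusted p under 0.05. The correlation of same-numbered deviations from the group means was 0.0432 across genes. With 2 libraries per group this cannot exclude a source shared by same-numbered libraries, which the labels do not give. The median log2 difference of all genes moved by at most 0.050 over the alternatives. Depth in fragments is unknown, which limits the low values of Igfbp6 and Igfbp3 most.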
